A study of Mus musculus with 2 samples.

Results

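Macrophages chosen by Mrc1, Lyve1, Msr1 and F13a1, called Mrc1 and Lyve1 macrophages here, made up 484 of the 2139 cells in a single-cell RNA sequencing experiment on mouse embryos. They were chosen by counts of unique molecular identifiers (UMIs), each of which stands for 1 captured transcript. A cell was taken when it met both conditions of the rule. First, its summed C1qa, C1qb and C1qc, the chains of complement component C1q, reached 500 CPM (UMIs scaled to 1000000 UMIs of that cell). Second, its summed UMIs of Mrc1, Lyve1, Msr1 and F13a1 were at least those of P2ry12, Tmem119, Rgs1 and Lair1. The genes from P2ry12 to Lair1 are called the microglia set here, and P2ry12 and Tmem119 mark microglia. The C1q minimum was met by 666 cells, of which the other 182 had more UMIs of the microglia set and are called other C1q cells here. The remaining 1473 cells fell below the C1q minimum.

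The cells were CD31+CD44+ cells sorted from the caudal region of embryos at E10.0, in which the dorsal aorta produces the first hematopoietic stem and progenitor cells. Vec-Cre;Nupr1 fl/fl embryos (cKO), in which a Cdh5 transgene directs Cre to the endothelium and both Nupr1 alleles are flanked by loxP sites, were compared with littermate controls, which GEO's labels call WT and which, per the paper, were Nupr1 fl/fl or Nupr1 fl/+ embryos. Cells of each genotype were labelled with a different hashtag oligo and run together on the Chromium droplet platform, in 2 independent replicates, so the study held 4 groups of cells, 1 for each genotype and replicate. Cells of each embryo were collected into 1 tube per replicate, and the number of embryos behind each group was not given in the sources used here, so the p-values below measure only the spread between these groups. The sort was set on CD31 and CD44 for endothelial and emerging blood cells, so these macrophages are those that passed that gate and not a sample of all macrophages of the embryo.

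Macrophages of the mid-gestation embryo arise first from yolk sac progenitors, spread through the tissues with the circulation, and take up dying cells and debris. Mrc1 encodes the mannose receptor CD206 and Lyve1 a receptor for hyaluronan. Both are textbook markers of perivascular and border-associated macrophages, which lie along vessels and membranes, while P2ry12 and Tmem119 mark microglia, the macrophages of the brain and spinal cord. Msr1 is a scavenger receptor, F13a1 the A chain of the clot-stabilizing factor XIII, Dab2 an adaptor for clathrin-mediated uptake, and Ccl24 a chemokine for eosinophils.

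The genes that chose the cells lie apart in the genome. On the mouse build GRCm38 (mm10), Mrc1 spans chr2:14229392-14332057, Lyve1 chr7:110850607-110863239, Msr1 chr8:39581685-39642673 and F13a1 chr13:36867178-37050244. All 4 are protein-coding genes in the GENCODE annotation used here. The start regions of 3 of the rule's genes are shown because the rule used their transcripts: a receptor, a coagulation gene and a gene of the C1q cluster. The C1q gene served the minimum that the other C1q cells met as well. Each is 300 bases of RefSeq's GRCm38.p6 sequence, 5′ to 3′ on the gene's strand. Capitals mark GAGGAA on either strand, the core of sequences bound by PU.1, the transcription factor encoded by Spi1 that macrophages require. The Mrc1 window is chr2:14229164-14229463 (plus strand), the F13a1 window chr13:37049164-37049463 (minus strand) and the C1qc window chr4:136892865-136893164 (minus strand).

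Mrc1: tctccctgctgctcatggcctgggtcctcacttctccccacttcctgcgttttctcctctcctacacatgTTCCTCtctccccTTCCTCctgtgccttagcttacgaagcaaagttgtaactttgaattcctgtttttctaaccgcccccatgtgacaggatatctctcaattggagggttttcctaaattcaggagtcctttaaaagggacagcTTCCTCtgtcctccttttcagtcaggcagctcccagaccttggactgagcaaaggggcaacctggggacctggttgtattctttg
F13a1: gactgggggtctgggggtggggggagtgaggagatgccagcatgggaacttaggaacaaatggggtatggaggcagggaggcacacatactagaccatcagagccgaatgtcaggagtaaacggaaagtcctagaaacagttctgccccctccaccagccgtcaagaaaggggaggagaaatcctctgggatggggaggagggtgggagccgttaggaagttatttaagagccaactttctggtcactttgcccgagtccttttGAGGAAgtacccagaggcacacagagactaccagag
C1qc: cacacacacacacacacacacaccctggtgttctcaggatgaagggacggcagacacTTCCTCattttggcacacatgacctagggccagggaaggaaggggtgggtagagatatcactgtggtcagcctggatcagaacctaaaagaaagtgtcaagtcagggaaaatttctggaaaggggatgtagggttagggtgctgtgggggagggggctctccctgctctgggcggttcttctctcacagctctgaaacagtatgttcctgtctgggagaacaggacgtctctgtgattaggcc

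In the windows shown, Mrc1 held the core 3 times, and F13a1 and C1qc each held it 1 time, inside the longer GAGGAAGT. A second F13a1 window, chr13:37050195-37050494, which spans the annotated 5′ end of the gene, held GAGGAA 2 times and GAGGAAGT 0 times. The 3 windows shown were picked for display. Of the 20 windows read for 17 named genes, 11 held GAGGAA and 2 held GAGGAAGT, the F13a1 and C1qc windows shown. Of all 32851 mouse promoter windows of this length, 28.28% held GAGGAA and 3.202% held GAGGAAGT on either strand. Every GAGGAAGT also counts as a GAGGAA. A match is a description of the letters and not a bound site.

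The class was uneven across the replicates. It held 47 cells in cKO replicate 1, 203 in cKO replicate 2, 29 in control replicate 1 and 205 in control replicate 2, so that 408 of its 484 cells came from replicate 2. The macrophages had a median of 58613.5 UMIs per cell, against 53250.5 in the other C1q cells, 30227 in cells chosen by endothelial genes, 83559 in those chosen by megakaryocyte genes and 83763 in those chosen by granulocyte and monocyte genes. Summed over the class, the 4 groups held 2857070, 13406707, 1536514 and 11850102 UMIs in the same order, and control replicate 1 was the shallowest. Only 8 of the 484 cells, all in replicate 1, lay outside the study's limits, which asked for over 1800 genes and 6000 UMIs in a cell and under 5% of mitochondrial origin. The replicates shared 0 cell barcodes.

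A check of sex-linked genes set replicate 1 apart. Among the macrophages, 45 of 47 cells of cKO replicate 1 had a UMI of a Y-linked gene, against 1 of 29 in control replicate 1 and 0 of 203 and 0 of 205 in replicate 2. Xist, the transcript of the inactive X chromosome, was detected in 2, 109, 25 and 205 cells of cKO replicates 1 and 2 and control replicates 1 and 2, and 94 of the 203 cells of cKO replicate 2 had neither. Sex and genotype therefore cannot be told apart in replicate 1. Replicate 2 was unbalanced too: over all its cells, Xist was detected in 411 of 713 cKO and 738 of 748 control cells. Results are given below by replicate, and neither replicate is free of this difference.

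The rule's own values describe the class and are no test of it. The median macrophage had 41 UMIs of the macrophage set and 3 of the microglia set, and the median other C1q cell 1 and 32. Most of the microglia set in the other C1q cells was Rgs1. It stood there at 587, 485, 830 and 696 CPM in cKO replicates 1 and 2 and control replicates 1 and 2. The whole set summed to 894, 758, 1202 and 961 CPM. Of the 484 cells, 202 had a UMI of all 4 macrophage genes, 161 of 3, 98 of 2, 19 of 1 and 4 of 0. Those 4 cells had 0 UMIs of both sets and were members by the tie rule, which admitted 8 cells in all. The boundary was thinly filled. At the C1q minimum, 2 macrophages lay between 500 and 750 CPM, and 13 cells lay just outside, between 250 and 500 CPM, of which 4 would have met the second condition. At the second condition, 19 macrophages had 50 to 60% of their rule UMIs from the macrophage set, with medians of 16 and 13 UMIs of the macrophage and microglia sets, and 18 other C1q cells had 40 to 50%, with medians of 22 and 24.5. The plot of the 2 rule sums shows this.

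**Figure D1:**
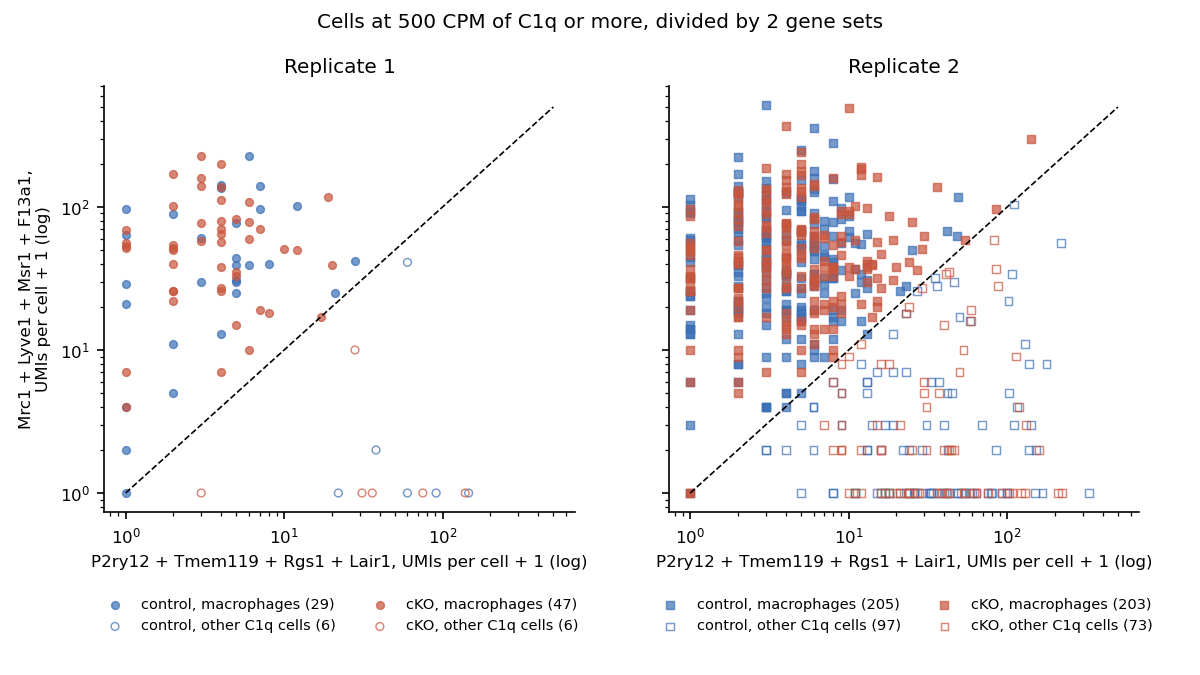
Each point is 1 of the 666 cells that met the C1q minimum, with summed UMIs of P2ry12, Tmem119, Rgs1 and Lair1 on the horizontal axis and of Mrc1, Lyve1, Msr1 and F13a1 on the vertical axis, both as UMIs with 1 added on a log scale, by replicate and class. The 484 macrophages lie on or above the diagonal and the 182 other C1q cells below it, with few cells of either class near the line.

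Detection of the markers was uneven, and Mrc1, Lyve1, Msr1 and F13a1 are rule genes, so that their gap to the other C1q cells was fixed by the choice. Mrc1 was detected in 97.31% of the macrophages (exact binomial 95% interval 95.45 to 98.56, which, like all intervals here, covers counting error only), against 45.05% of the other C1q cells and 7.947% of the endothelial cells. Lyve1 was detected in 55.99% (51.44 to 60.47), against 2.198% and 10.46%, so a large part of the class had no Lyve1 UMI. With each cell thinned to 6000 UMIs, which left out 6 macrophages, the shares were 80.33% for Mrc1 and 35.56% for Lyve1. Dab2, which the rule did not use, was found in 99.79% of the macrophages, 76.92% of the other C1q cells and 43.71% of the endothelial cells. The other markers given for the class were detected in 88.84% (F13a1), 69.01% (Msr1) and 83.68% (Ccl24) of the macrophages.

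The levels of the 6 markers are given as the CPM of the summed cells in cKO replicate 1, cKO replicate 2, control replicate 1 and control replicate 2. Mrc1 stood at 593, 404, 704 and 465 CPM in the macrophages and at 2.92, 58.3, 93.6 and 60.5 CPM in the other C1q cells. Lyve1 stood at 97.7, 218, 124 and 220 CPM, with replicate 2 above replicate 1 in both genotypes, and at 0, 0.447, 0 and 0.793 CPM in the other C1q cells. F13a1 stood at 266, 252, 193 and 233 CPM against 23.4, 23.7, 11.7 and 30.7 CPM. These 3 and Msr1 are rule genes, so their gap was set by the choice of cells. Msr1 stood at 101, 64.4, 41.7 and 59.7 CPM against 0, 9.16, 14.6 and 11.3 CPM. Dab2, which was not in the rule, stood at 786, 610, 712 and 575 CPM in the macrophages and at 114, 172, 140 and 163 CPM in the other C1q cells. Ccl24, likewise not in the rule, stood at 40.3, 117, 38.4 and 101 CPM against 29.2, 29.3, 0 and 32.5 CPM, with its 2 replicate 1 values well below those of replicate 2. For all 6 markers the lowest macrophage group was above the highest group of other C1q cells.

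**Figure D2:**
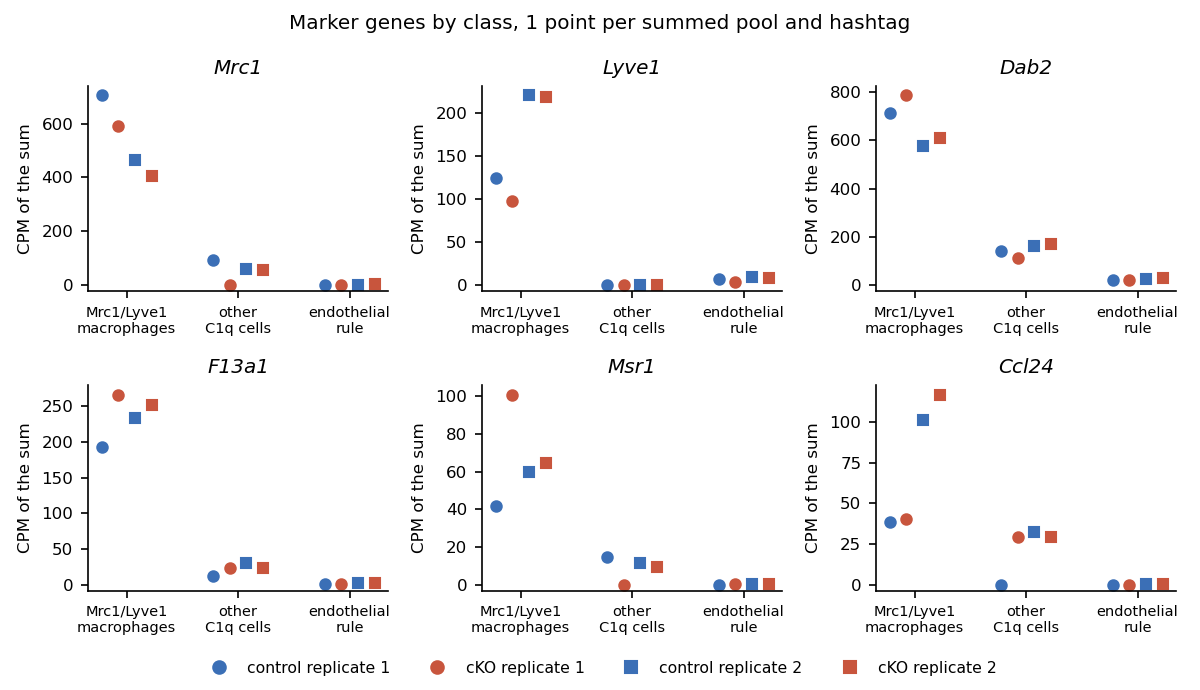
Each panel shows 1 of the 6 markers, with the level in CPM of the summed cells of a class on the vertical axis and 1 point for each genotype and replicate, for the macrophages, the other C1q cells and the endothelial cells. The macrophage points lie above those of the other C1q cells in each of the 6 panels, as in the 575 CPM lowest value of Dab2 against 172 CPM.

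The macrophages were then compared with the other C1q cells gene by gene. Since the genes of the same cells defined the classes, these are descriptions with no test, and a gene is called higher or lower when the 4 groups of one class do not overlap the 4 of the other. Of 2898 genes with a mean of at least 50 CPM in either class, 248 were higher (8.56%) and 175 lower (6.04%), with a median log2 ratio over all of them of 0.07, taken within the same replicate and hashtag with 1 CPM added. The other C1q cells of replicate 1 numbered only 6 in each genotype, so their values there rest on few cells. In replicate 2 alone, where 1 value of each genotype has to clear the other class, 1091 genes were higher and 660 lower, and the 25 genes of largest ratio kept their direction.

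Stab1 and Dab2 were the uptake receptors outside the rule that were higher in the macrophages. Of the 17 scavenger and endocytic receptors listed, 6 reached 50 CPM and 5 of these were higher, namely Mrc1, Lyve1, Msr1, Dab2 and Stab1, of which 3 are rule genes. Over all genes, 8.56% were higher. Stab1, the scavenger receptor stabilin-1, stood at 201, 205, 279 and 239 CPM in the macrophages (cKO replicates 1 and 2, control replicates 1 and 2) against 105, 52.5, 32.2 and 54.1 CPM in the other C1q cells, a median log2 ratio of 2.03. The macrophage groups differed little for Stab1 and none overlapped the other class. Lrp1, a broad endocytic receptor, was the exception among the 6 and overlapped, at 53.2, 41.7, 66.4 and 52.4 CPM against 87.7, 49.4, 49.7 and 41.2 CPM. Several receptors of adult tissue macrophages were scarce. Cd163, the hemoglobin scavenger receptor, had a UMI in 2 of the 484 cells and Marco in 4, and Cd209b in 0, where a count of 0 allows a share of cells with a UMI of up to 0.6198% (3 counts of the total).

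Receptors for dying cells did not move together. Of 15 efferocytosis genes, 3 reached 50 CPM, with 1 higher and 1 lower, against 8.56% and 6.04% over all genes. Gas6, the ligand that bridges phosphatidylserine to the TAM receptors, was higher, at 57.4, 133, 98.3 and 139 CPM against 11.7, 31.0, 14.6 and 27.6 CPM (median log2 ratio 2.25). Itgb5, an integrin chain, was lower, at 56.7, 52.3, 72.2 and 59.2 CPM against 134, 116, 181 and 92.8 CPM. Timd4, a phosphatidylserine receptor of resident macrophages, was low but clear of the other class, at 8.05, 11.04, 3.91 and 15.4 CPM against 0, 1.12, 2.92 and 0.397 CPM. It was detected in 18.8% of the macrophages, 3.297% of the other C1q cells and 0 of the endothelial cells.

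Some genes of iron and heme handling, none of which the rule used, were higher in the macrophages. Of the 8 that reached 50 CPM, 4 were higher and 0 lower, against 8.56% and 6.04% over all genes. Their median log2 ratio was 0.87. Slc40a1, which encodes ferroportin, the exporter of iron from cells, stood at 49.7, 58.0, 46.9 and 77.0 CPM against 2.92, 9.16, 0 and 14.9 CPM (median log2 ratio 3.12). Blvrb and Blvra, the biliverdin reductases that act after heme has been opened, were also higher. Blvrb stood at 84.0, 169, 124 and 175 CPM against 49.7, 54.9, 35.1 and 61.7 CPM. Trf, encoding transferrin, completed the 4. Hmox1, the heme oxygenase, overlapped between the classes, at 432, 677, 135 and 611 CPM against 254, 423, 58.5 and 402 CPM, and was lowest in control replicate 1 in both. The ferritin genes Fth1 and Ftl1 overlapped as well.

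Chemokines split. Of 10 chemokine and receptor genes at 50 CPM, 4 were higher and 2 lower in the macrophages, against 8.56% and 6.04% over all genes. Those higher were Ccl2 and Ccl12, ligands of CCR2 that draw monocytes, and Ccl9 and Ccl24. Ccl2 stood at 186, 309, 142 and 142 CPM against 137, 60.1, 14.6 and 91.8 CPM, and Ccl12 at 52.9, 88.6, 28.0 and 62.1 CPM against 0, 8.71, 8.77 and 10.3 CPM. Ccl7, under the minimum, went the same way at 14.7, 42.6, 7.16 and 26.9 CPM against 0, 1.34, 0 and 2.58 CPM. The 2 that were lower were Ccl3 and Ccl4, the macrophage inflammatory proteins. Ccl3 stood at 576, 1119, 278 and 1150 CPM against 1625, 1642, 2149 and 2491 CPM, and was thus still well expressed in the macrophages. Spp1, encoding osteopontin, was at 1.05, 24.3, 11.1 and 18.7 CPM against 32.1, 74.4, 46.8 and 30.1 CPM.

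Complement genes other than C1q were mixed. The receptor for C5a, C5ar1, was higher at 92.4, 76.3, 67.0 and 76.3 CPM against 14.6, 13.2, 11.7 and 22.0 CPM, and properdin, encoded by Cfp, was higher with a median log2 ratio of 1.92. Itgam, the alpha chain of complement receptor CR3, was lower, at 36.4, 29.4, 34.5 and 27.0 CPM against 58.4, 61.6, 170 and 58.3 CPM. In all, 2 of the 8 complement genes at 50 CPM were higher and 1 lower, against 8.56% and 6.04% over all genes. The 8 include the 3 C1q genes, which the rule used. The C1q genes themselves overlapped between the classes, with a median log2 ratio of 0.23 over the 3.

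Of 13 transcription factors, 1 was higher, a share near the 8.56% over all genes, and 5 were lower, against 6.04% over all genes. The factor that was higher was Maf, at 385, 307, 477 and 359 CPM against 196, 216, 81.9 and 201 CPM. Among those lower were Irf8 and Irf5, interferon regulatory factors of the myeloid lineage, Runx1 and Mef2c, at median log2 ratios of -0.67, -0.60, -0.56 and -0.47. Spi1 overlapped, at 346, 513, 351 and 510 CPM against 418, 502, 415 and 505 CPM. Sall1, a factor of microglia, had 0 UMIs in the macrophages.

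Microglia genes outside the rule were mixed. Of 11 in the list at 50 CPM, 7 were lower and 0 higher, against 6.04% and 8.56% over all genes. But 4 of the 7 are those the rule used, so that 3 of the 7 others were lower. The median log2 ratio of -2.18 includes the rule's genes. Sparc, a secreted matrix protein, stood at 6.30, 5.74, 4.56 and 8.86 CPM against 32.1, 133, 336 and 176 CPM. Fcrls was the exception in direction, at 147, 398, 305 and 455 CPM against 61.4, 264, 81.9 and 231 CPM with the groups overlapping, and Cx3cr1, the fractalkine receptor, overlapped at 524, 475, 844 and 470 CPM against 1148, 602, 710 and 529 CPM.

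Genes shared by macrophages of all kinds mostly overlapped between the classes. Of 13 such genes, 0 were higher and 3 lower (Aif1, Itgam and Laptm5), against 8.56% and 6.04% over all genes. Their median log2 ratio was -0.19. Csf1r, the receptor for the growth factor that macrophages depend on, stood at 247, 222, 296 and 269 CPM against 400, 263, 325 and 255 CPM. Most lysosomal genes overlapped as well. Of 18, 1 was higher (Lamp1), no larger a share than the 8.56% over all genes. The 4 that were lower made up a larger share than the 6.04% over all genes. Those lower included Psap, Ctsh and Ctss. Cathepsin S, encoded by Ctss, stood at 167, 333, 212 and 355 CPM against 985, 807, 749 and 832 CPM. Ctsb, encoding cathepsin B, leaned the other way at 1173, 1880, 1261 and 1838 CPM against 923, 1114, 544 and 1220 CPM, with the groups overlapping.

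Among the remaining genes of largest ratio, Ednrb, the endothelin receptor B, was second only to Lyve1. It stood at 109, 190, 104 and 189 CPM against 2.92, 55.4, 0 and 42.6 CPM, a median log2 ratio of 3.46. Fcgrt, the neonatal Fc receptor that recycles IgG and albumin, stood at 96.3, 176, 115 and 190 CPM against 5.84, 35.7, 17.5 and 51.0 CPM. Igfbp4, a binding protein of insulin-like growth factors, stood at 241, 324, 249 and 319 CPM against 40.9, 88.2, 58.5 and 92.0 CPM. Igfbp4 was higher still in the endothelial cells, at a mean of 1102 CPM, whereas Fcgrt was at 5.66 CPM there. At the other end stood F11r, the junctional adhesion molecule A, at 2.45, 4.33, 1.95 and 8.95 CPM against 120, 75.7, 170 and 84.7 CPM. The 15 genes of largest ratio upward held all 4 macrophage genes of the rule, and the 10 downward held 3 of its 4 microglia genes.

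**Figure D3:**
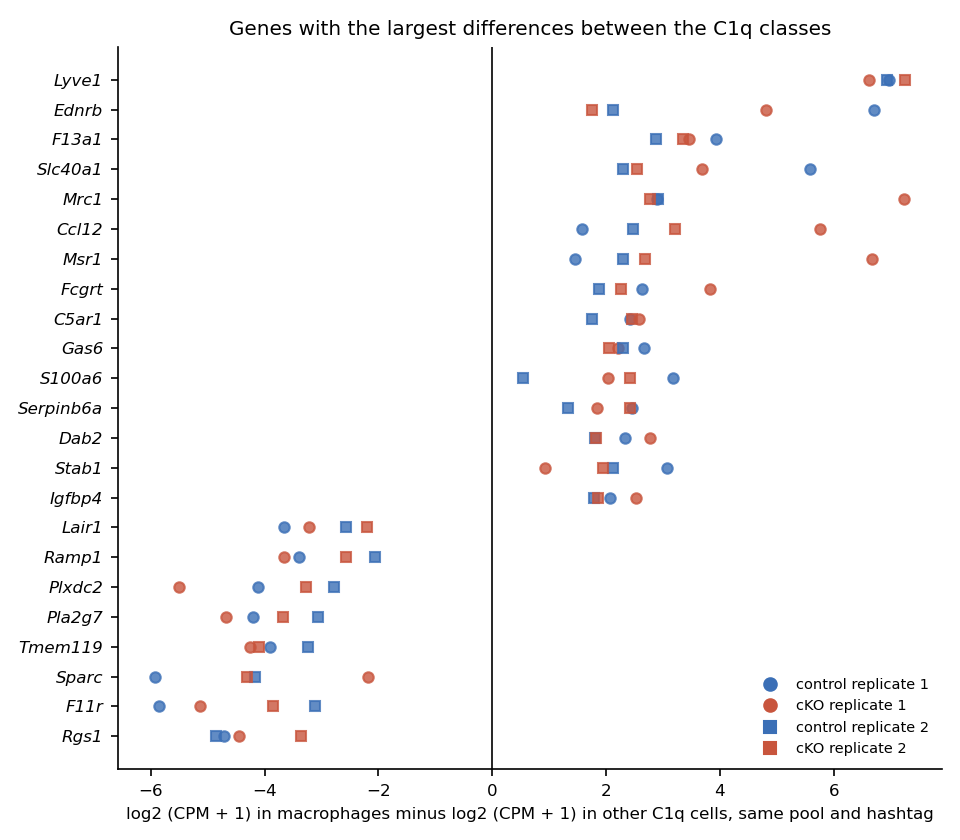
Points give the log2 ratio of CPM in the macrophages over the other C1q cells, with 1 CPM added, for each of the 4 genotype and replicate groups, for the 15 genes of largest median ratio upward and 8 of the 10 downward. All points of these genes lie on 1 side of 0, with Ednrb, which the rule did not use, at a median of 3.46.

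Immediate-early genes were lower in the macrophages for 6 of 13, and higher for 0, against 6.04% and 8.56% over all genes. Those lower were Junb, Ier2, Ier3, Atf3, Zfp36 and Nr4a1, which respond to stimulation and to the handling of cells. Zfp36, a protein that destabilizes cytokine transcripts, stood at 160, 172, 174 and 111 CPM against 529, 245, 468 and 324 CPM. Which part of this gap came from dissociation and sorting was not tested. Genes of MHC class II were scarce, and none of the 7 reached 50 CPM in either class, with Cd74 at 3.50, 15.6, 13.7 and 16.5 CPM in the macrophages.

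Within the class, several genes outside the rule varied with the share of macrophage-set UMIs. The 480 cells with any rule UMI were split by the share of those UMIs that came from the macrophage set, at cut points set after the distribution had been seen: 54 cells at 50 to 70%, 134 at 70 to 90% and 292 at 90 to 100%. The rule genes differ between these bands by construction. Dab2, outside the rule, went from 344, 447, 193 and 296 CPM in the lowest band to 919, 725, 883 and 687 CPM in the highest, higher in each of the 4 groups. Gas6 went from 10.4, 60.2, 10.4 and 46.8 CPM to 67.9, 170, 127 and 169 CPM, and Stab1 from 88.5, 110, 62.7 and 88.8 CPM to 232, 262, 359 and 282 CPM. Maf was higher in the top band in all 4 groups too. Csf1r stood at 292, 195, 209 and 197 CPM in the lowest band and 259, 237, 314 and 280 CPM in the highest, lower only in cKO replicate 1. In summed cells, a graded level and a changing mix of cells cannot be told apart. In replicate 1 the lowest band held only 4 cKO and 2 control cells.

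**Figure D4:**
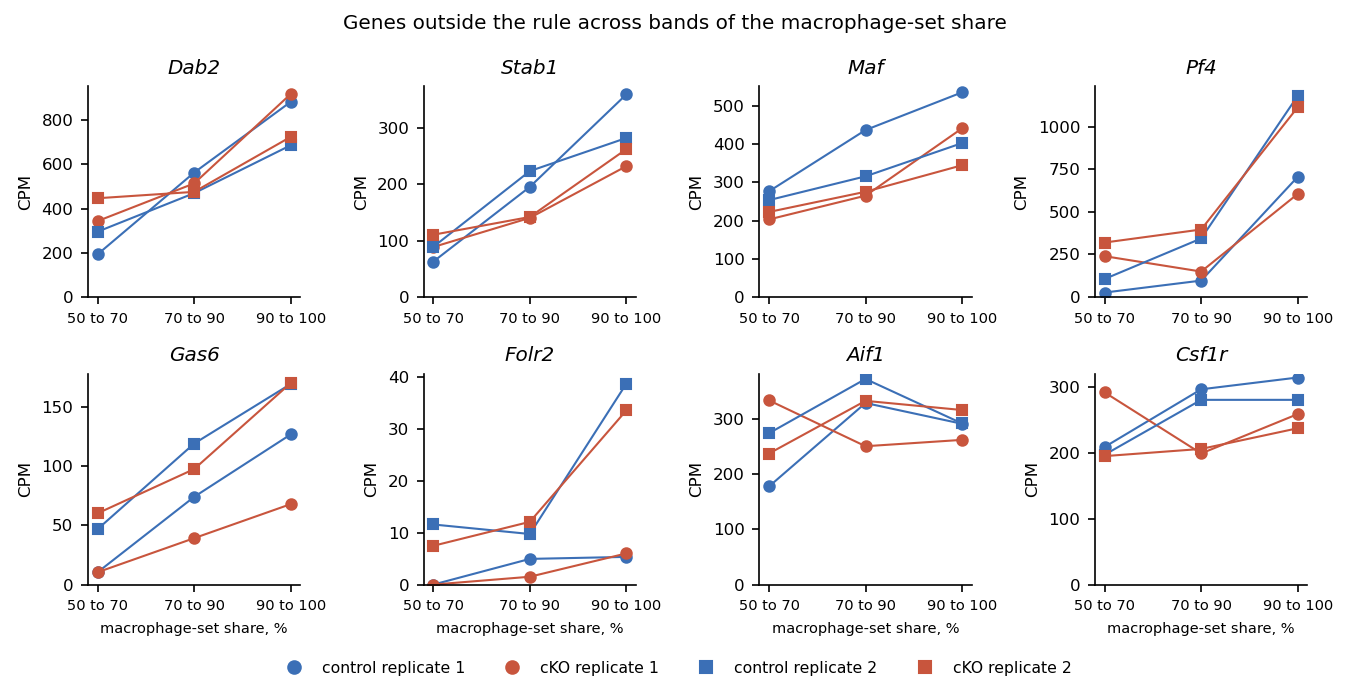
Lines show the level in CPM of summed cells in the 3 bands of macrophage-set share (horizontal axis, percent), 1 line for each genotype and replicate and 1 panel for each gene. Dab2, Gas6 and Stab1 lie higher in the 90 to 100% band than in the 50 to 70% band in all 4 groups. Csf1r does so in every group but cKO replicate 1, whose lowest band held 4 cells.

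Across single cells, the Spearman correlation of CPM between Mrc1 and Dab2 was 0.75, 0.76, 0.65 and 0.78 in the 47, 203, 29 and 205 cells of cKO replicates 1 and 2 and control replicates 1 and 2. Lyve1 and Gas6 gave 0.54, 0.62, 0.42 and 0.56, and Mrc1 and Lyve1 gave 0.38, 0.50, 0.63 and 0.55. Mrc1 and F13a1, both rule genes, were less regular at 0.02, 0.27, 0.39 and 0.51. The cells of a group share a library and differ in depth, so these are descriptions only.

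Pf4, encoding platelet factor 4, was abundant in the macrophages, at 475, 785, 461 and 816 CPM, and was detected in 45 of 47, 202 of 203, 28 of 29 and 201 of 205 cells. The same gene is a leading transcript of megakaryocytes, which the sort also held. In the macrophages, Pf4 UMIs outnumbered the summed UMIs of 4 other megakaryocyte genes (Ppbp, Gp1bb, Gp9 and Treml1) 104, 38.4, 355 and 19.8 to 1. In replicate 1 the 4 genes held only 13 UMIs in the cKO and 2 in the control, so those ratios are unsteady. In control replicate 2 a single cell supplied most of the Gp1bb UMIs, as given below. In megakaryocytes of the same libraries the ratio was 5.04 in cKO replicate 2, 3.99 in control replicate 1 and 5.42 in control replicate 2. In the other C1q cells of replicate 2 it was 8.82 in the cKO and 5.28 in the control, where most Ppbp UMIs came from 1 cell. The source of the Pf4 transcripts was not tested. Pf4 also rose with the macrophage share, from 240, 320, 26.1 and 106 CPM in the lowest band to 605, 1114, 705 and 1181 CPM in the highest.

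Against the 1473 cells below the C1q minimum, a larger share of genes differed without overlap. In replicate 1 these cells numbered 291 in the cKO and 299 in the control, against 6 other C1q cells in each genotype. The 2 shares are thus not measured alike. Of 3254 genes at 50 CPM, 602 were higher in the macrophages (18.5%) and 743 lower (22.8%). Of the 6 class markers, all were higher, with median log2 ratios of 6.92 for Mrc1, 5.52 for Dab2 and 3.98 for F13a1. Mrc1 and F13a1 are rule genes and Dab2 is not. F13a1 was detected in 76.02% of the megakaryocytes and 48.15% of the granulocyte and monocyte cells, so it did not mark macrophages alone. Lyve1 was found in 10.46% of the endothelial cells, at 7.38 CPM on average.

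Apart from Pf4, the listed genes of other cell types were low in the macrophages. All 14 endothelial genes listed had a UMI, and their summed level was 84.4 to 127 CPM over the 4 groups, against 5993 to 10818 CPM in the endothelial cells. Pecam1, which encodes CD31, one of the sort's antigens, stood at 16.5, 9.55, 20.2 and 10.6 CPM, against a mean of 382 CPM in the endothelial cells, and had a UMI in 40.29% of the macrophages. Cd44, the other antigen, stood at 54.3, 42.4, 63.8 and 39.2 CPM, close to the endothelial mean of 51.0 CPM. The 10 megakaryocyte genes listed, which leave out Pf4, summed to 5.86 to 64.1 CPM and the 11 granulocyte and monocyte genes to 221 to 411 CPM, of which Prtn3 and Plac8 made up a large part. Erythroid genes summed to 5.25 to 25.1 CPM, and mesenchymal genes to 1.27 to 2.62 CPM with Myog at 0. The rules for those other types were also met by 1 (endothelial), 2 (megakaryocyte) and 20 (granulocyte and monocyte) of the 484 macrophages.

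Nearly all of the macrophages carried transcripts of the cell cycle. Taking a summed level of at least 300 CPM over 11 genes of the G2 and M phases, 466 of 484 passed (96.28%), against 81.87% of the other C1q cells, 97.22% of the granulocyte and monocyte cells, 78.57% of the megakaryocytes and 52.45% of the endothelial cells, which were less deeply sequenced. By group the shares were 100, 96.06, 96.55 and 95.61% in cKO replicates 1 and 2 and control replicates 1 and 2. The median summed level per cell was 1809, 1547, 2393 and 1576 CPM. None of the 11 genes separated the macrophages from the other C1q cells without overlap. Of 13 S phase genes Pcna and Gins2 were higher, against 8.56% over all genes. A minimum this low includes cells with few such transcripts: at 1000 CPM the shares were 91.49, 70.44, 82.76 and 76.59%.

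The share of the class was higher in the cKO in both replicates, by less than the spread between replicates. Macrophages made up 13.66% (exact 95% interval 10.21 to 17.75) of the cells of cKO replicate 1, 28.47% (25.18 to 31.94) of cKO replicate 2, 8.683% (5.892 to 12.23) of control replicate 1 and 27.41% (24.24 to 30.75) of control replicate 2. The replicates differed far more than the genotypes. The mean was 21.07% ± 10.47 (SD, n = 2) in the cKO and 18.04% ± 13.24 in the control, a difference of 3.022 percentage points (two-sided exact permutation p = 0.6667, with 0.3333 the smallest that 2 against 2 can give). Within replicates 1 and 2 the differences were 4.98 and 1.065 points.

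Among C1q cells, macrophages made up 88.68% and 73.55% in the cKO and 82.86% and 67.88% in the control. The cKO was higher by 5.822 points in replicate 1 and 5.67 points in replicate 2, with means of 81.11% ± 10.7 and 75.37% ± 10.59 (SD, n = 2) and a two-sided exact permutation p of 0.6667. For the share of cycling cells the means were 98.03% ± 2.787 and 96.08% ± 0.6661 (SD, n = 2), again with an exact permutation p of 0.6667. These tests did not pair the genotypes within a replicate and could not reach a p below 0.3333, whatever the effect.

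Nupr1, the targeted gene, a small stress-response chromatin factor at chr7:126623249-126630861, was lower in the macrophages of both cKO groups. It stood at 0 and 2.54 CPM in cKO replicates 1 and 2 and at 27.3 and 42.4 CPM in control replicates 1 and 2. A UMI was found in 0 of 47, 16 of 203, 16 of 29 and 154 of 205 cells, and the 0 of 47 allows a share of cells with a UMI of up to 6.383% (3 counts of the total). The genotypes did not overlap. In the summed cells, fewer cells with the transcript and fewer transcripts per cell cannot be told apart by the CPM alone. The fitted log2 fold change was -4.26 (SE 0.68, n = 2) in the edgeR quasi-likelihood fit without a replicate term, with a Benjamini-Hochberg adjusted p of 0.9999 over 10316 genes, and -4.30 (SE 0.36, adjusted p = 0.0169) with the replicate as a block.

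Across all genes, the count of calls depended on that block. Without it the edgeR quasi-likelihood test called 0 of 10316 genes (0%) at an adjusted p below 0.05, with 51 at an unadjusted p below 0.05, and DESeq2 called 0. With it, 11 genes were called (0.107%), 9 higher and 2 lower in the cKO, and 576 had an unadjusted edgeR p below 0.05. Since cells of both genotypes were run together in each replicate, the replicate number marks a shared library, and the deviations of same-numbered groups from their genotype means correlated at 0.46 across genes. The median log2 fold change of all genes was -0.01.

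Hebp1, a heme-binding protein, had the smallest adjusted p of the blocked fit. It stood at 57.1 and 97.8 CPM in cKO replicates 1 and 2 and at 18.2 and 30.1 CPM in the controls, with no overlap. Its log2 fold change was 1.69 (SE 0.13, blocked edgeR adjusted p = 0.000525), and it was detected in 41 of 47 and 198 of 203 cKO cells and in 13 of 29 and 144 of 205 control cells. Hebp1 was higher in the cKO in the other C1q cells too, at 161 and 188 CPM against 49.7 and 46.0 CPM, and in the endothelial cells, at 51.1 and 75.6 CPM against 21.5 and 36.0 CPM.

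The other genes called higher included Atf3 and Ier3, both on the list of immediate-early genes, Cxcl10, Klf6, Hsp90aa1, Hist1h2ab and BC100530. Atf3, a stress-induced transcription factor, stood at 355 and 519 CPM in the cKO and 245 and 353 CPM in the control, so the genotypes differed in each replicate (blocked log2 fold change 0.56, SE 0.07, edgeR adjusted p = 0.0173). Ier3, an early response gene, stood at 150 and 123 CPM against 59.2 and 67.3 CPM (blocked 1.05, SE 0.12, edgeR adjusted p = 0.0125). Klf6 stood at 570.5 and 793.6 CPM against 420.4 and 624.1 CPM, and Hsp90aa1 at 2448 and 1445 CPM against 1926 and 1220 CPM. For both genes the genotypes overlapped across replicates, with the cKO higher within each replicate. The blocked log2 fold changes were 0.40 and 0.30, with blocked edgeR adjusted p of 0.0478 and 0.0438. Cxcl10, an interferon-induced chemokine, stood at 71.1 and 45.4 CPM against 34.5 and 16.96 CPM (blocked 1.29, SE 0.15, edgeR adjusted p = 0.0125), with 21 of 47, 43 of 203, 11 of 29 and 22 of 205 cells having a UMI. Single cells held 26.11 to 45.77% of its UMIs in a group. Hist1h2ab, a histone gene, was called as well, at 0.67 (blocked edgeR adjusted p = 0.0378). Its levels were 175.7 and 110.1 CPM against 118.4 and 66.33 CPM, so the genotypes overlapped. Without the block, each gene named in this paragraph had an edgeR adjusted p of 0.9999.

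For BC100530 and Gp1bb, most UMIs of 1 group came from 1 cell, and no fit without those cells was made. Gp1bb, a platelet glycoprotein gene and the other gene called lower besides Nupr1, stood at 0.35, 1.57, 0 and 15.5 CPM, and 169 of its 184 UMIs in control replicate 2 came from 1 cell. BC100530 stood at 2.1, 10.4, 0 and 1.86 CPM, and 91 of its 140 UMIs in cKO replicate 2 came from 1 cell.

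**Figure D5:**
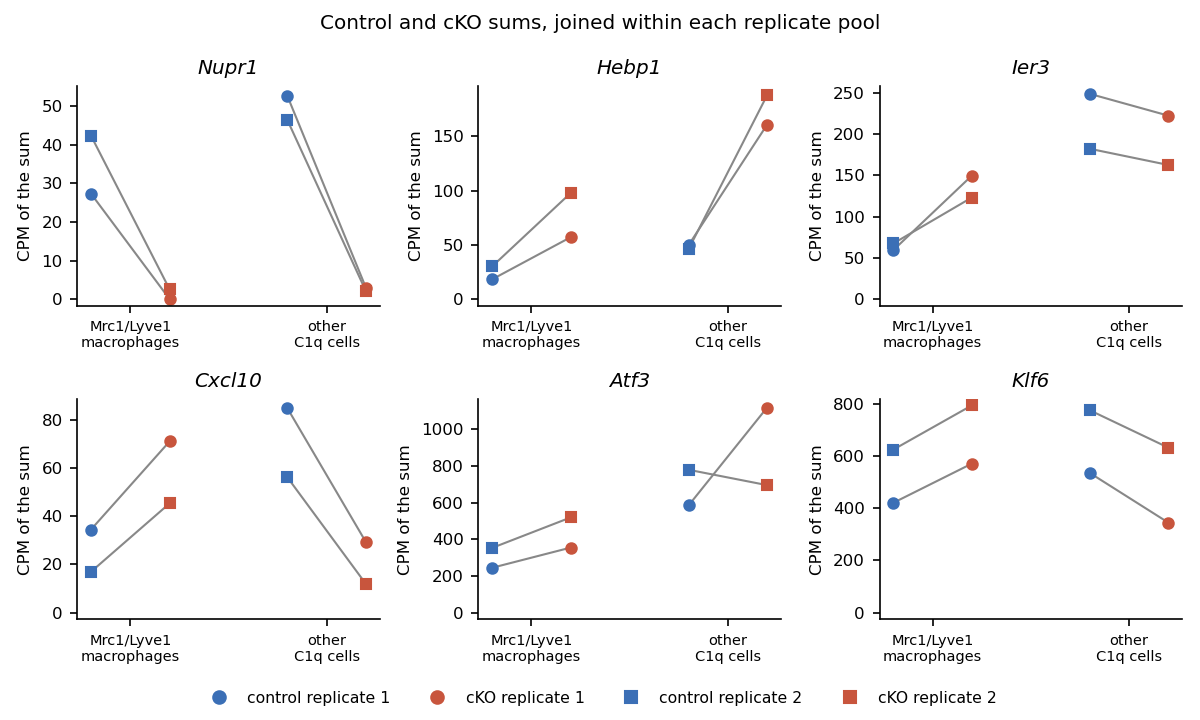
Each panel shows 1 of 6 genes called by the blocked fit in the macrophages, with the level in CPM of the summed macrophages (left) and other C1q cells (right) on the vertical axis, points for cKO and control, and a line joining the groups of the same replicate. Nupr1 falls from 27.3 and 42.4 CPM in the control to 0 and 2.54 CPM in the cKO, and Hebp1 lies higher in the cKO macrophages in both replicates.

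Over all genes the blocked fit called 11 of 10316 (0.107%). Of the gene lists, the blocked fit called 1 of 17 chemokine and receptor genes (Cxcl10), 2 of 14 immediate-early genes (Ier3 and Atf3), 1 of 13 genes of the integrated stress response (Nupr1) and 1 of 6 megakaryocyte genes (Gp1bb). It called 0 of 6 class markers, whose median log2 fold change in the fit without the block was 0.14, 0 of 12 scavenger receptors at -0.10, 0 of 12 iron and heme genes at 0.05, 0 of 21 lysosomal genes at -0.07 and 0 of 15 genes shared by all macrophages at -0.07. At the share over all genes, lists this short would be likely to hold 0 calls. These counts of 0 therefore do not show that the lists were unchanged. Tnf stood at 22.1 and 40.4 CPM in cKO replicates 1 and 2 and at 28.6 and 18.1 CPM in the controls, overlapping, with a blocked log2 fold change of 0.71 (SE 0.41, edgeR adjusted p = 0.943).

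Whether the genotypes differed by other amounts in the macrophages than in the other C1q cells was tested in 1 edgeR fit over both classes with a term for each group of cells. Of 10169 genes, 11 had a difference of the fold changes at an adjusted p below 0.05 (0.108%). C1qa was 1 of the 11, but the choice of cells used its values, so its call is no test. With cells that met the rule of another type left out, the count was 2. With a C1q minimum of 250 CPM it was 3. Cxcl10 was among the 11. It stood at 71.1, 45.4, 34.5 and 16.96 CPM in the macrophages and 29.2, 11.8, 84.8 and 56.1 CPM in the other C1q cells. It was higher in the cKO in the first and lower in the second. Hspa1a, an inducible heat shock protein, stood at 849, 1289, 486 and 1004 CPM in the macrophages and 809, 1668, 971 and 1874 CPM in the other C1q cells. The remaining ones are given with their values in the closing section. The 6 other C1q cells of each genotype in replicate 1 limit this comparison.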

How the data were processed

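Gene UMI counts per cell and a table of cells with the hashtag genotype were used as the authors deposited them, for 2 libraries. Per the labels the reads were processed with Cell Ranger 5.0.1 on mm10, and per the paper's methods genotypes were called from the hashtags and cells were filtered, with 101 of the 2139 deposited cells outside the stated limits. No doublet caller was run. Per the methods, only cells with a single hashtag were kept, and doublets of cells of the same genotype would pass that step. The members and gene lists were chosen with earlier results of these data known. Raw counts were summed per class, replicate and hashtag, giving 4 sums with 2 per genotype. Genotypes were compared with edgeR 4.0.16 (quasi-likelihood test, TMM, low-count filter, Benjamini-Hochberg adjustment, threshold 0.05) without and with the replicate as a block, and with DESeq2 1.42.0. Same-numbered sums share a library and deviated together (correlation 0.4609), so the blocked values are given beside the others. Classes were compared as log2 ratios of CPM with 1 CPM added, without a test. The named genes are the markers, Nupr1, Pecam1, Cd44, the 15 highest and 10 lowest by median ratio, the 10 of smallest p between genotypes, and from each gene list the 4 of highest level and 2 of largest ratio. Other list members, such as Tnf and Ctss, and the last genotype call were chosen after their values were seen. Shares were compared with two-sided exact permutation tests. In simulated counts with 100 genes changed at each size, the unblocked fit recovered 27 at 2-fold and 100 at 4-fold, with 5 false calls. This recovery cannot be carried over to the measured sums. There the unblocked edgeR fit gave Nupr1 an adjusted p of 0.9999 at a log2 fold change of -4.26. A change of 4-fold or more could thus be missed in these data. Some genes are not reported here. Gene positions came from the GRCm38 annotation and promoter sequences from RefSeq GRCm38.p6. Python 3.11.15 and R 4.3.3 were used.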

Additional observations from a re-analysis of the deposited data

Results flagged for a closer look

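For 11 genes the effect of genotype differed between the Mrc1 and Lyve1 macrophages and the other C1q cells, by an interaction term in edgeR with Benjamini-Hochberg adjustment over 10169 genes. The difference is given as the log2 fold change of cKO over control in the macrophages minus that in the other C1q cells, over 4 sums of each class. The other C1q cells of replicate 1 numbered 6 in each genotype.

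The 2 largest differences were those of Ppbp and Cxcl10. For Ppbp, a platelet chemokine, it was 5.77 (SE 0.68, adjusted p = 3.77e-13), and 240 of the 258 Ppbp UMIs of the other C1q cells in control replicate 2 came from 1 cell. For Cxcl10 it was 3.37 (SE 0.41, adjusted p = 9.27e-13), and 166 of 283 UMIs of the other C1q cells in control replicate 2 came from 1 cell. Ccrl2, an atypical chemokine receptor, differed by 1.87 (SE 0.42, adjusted p = 0.0102), at 12.6, 16.7, 10.4 and 12.5 CPM in the macrophages of cKO replicates 1 and 2 and control replicates 1 and 2, and at 58.4, 27.5, 99.4 and 94.4 CPM in the other C1q cells.

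Hspb1, Hspa1a and Dnajb1, which encode heat shock proteins, differed by 1.69 (SE 0.34, adjusted p = 0.00535), 0.84 (SE 0.18, adjusted p = 0.00535) and 1.23 (SE 0.30, adjusted p = 0.0439). Hspb1 stood at 41.0, 225, 31.2 and 187 CPM in the macrophages and at 78.9, 148, 170 and 384 CPM in the other C1q cells. Ier3 differed by 1.28 (SE 0.31, adjusted p = 0.0364), Klf6 by 0.89 (SE 0.22, adjusted p = 0.0439) and Cdkn1a, the cell cycle inhibitor p21, by 2.03 (SE 0.44, adjusted p = 0.00791). Cdkn1a stood at 12.3, 30.1, 9.11 and 23.5 CPM in the macrophages and 17.5, 26.6, 23.4 and 98.3 CPM in the other C1q cells.

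Stfa1, a cystatin of myeloid cells, differed by 2.46 (SE 0.56, adjusted p = 0.0151), at 50.1, 28.6, 0 and 11.3 CPM in the macrophages. C1qa, which the choice of cells used, differed the other way, by -0.98 (SE 0.21). It stood at 620, 852, 767 and 1005 CPM in the macrophages and 926, 801, 307 and 777 CPM in the other C1q cells. The fit counted it among the 11, but its values chose the cells, so it is given as a description only. With cells that met the rule of another type left out, Cxcl10 and Hspa1a were the genes called.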

How the results depend on the processing

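The count of genes called between genotypes moved most. It was 0 as reported and 0 with DESeq2, RLE scaling, a C1q minimum of 250 or 1000 CPM, ties left out, the stated cell limits or cells of another type left out. It was 11 with the replicate block and 12 without a low-count filter. With 1 sum left out the count ranged from 9 (without cKO replicate 1) to 32 (without cKO replicate 2), and was 19 without control replicate 1 and 16 without control replicate 2; the sum left alone is then assumed to vary like the others, and the 32 include Xist and Y-linked genes. The log2 fold change of Nupr1 was -4.30 with the replicate block, -4.24 without the filter (adjusted p = 3.35e-19), and -10.59 to -3.76 with 1 sum left out, past the threshold in each; against a sum with 0 UMIs it depends on the prior count. Genes whose genotype effect differed between the classes numbered 3 at 250 CPM and 2 with cells of another type left out, against 11. The difference in the share of all cells ranged from -6.339 to 12.38 points with 1 sum left out, that among C1q cells from -1.818 to 13.31 and that of cycling cells from -0.02163 to 3.919. With a cycling minimum of 2000 CPM, chosen after seeing the data, it was -11.87. In replicate 2 alone, also chosen later, 1091 genes were higher and 660 lower than in the other C1q cells. The cause of these changes was not tested. The 29 cells of control replicate 1, with 1536514 UMIs, limit each genotype comparison, and a gene at 0 there could stand at up to 1.952 CPM.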
